A study of Mus musculus with 203 samples.

Results

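The 10 genes described here, *Fos*, *Fosb*, *Jun*, *Junb*, *Egr1*, *Arc*, *Atf3*, *Sprr1a*, *Gap43* and *Ddit3*, were chosen by name from the 24029 genes counted in single neurons of the mouse nucleus ambiguus (Amb), as genes known to respond to stimulation, tissue handling or axon injury. Their levels were read in single neurons, each a separate library. By the deposited annotation 53 of these were ACP and 98 were ACV neurons, the 2 types labeled from the heart (together Amb Cardiac), and 52 were neurons labeled from the cricothyroid muscle of the larynx (Amb Laryngeal, called Larynx here).

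All the mice were wild-type C57BL/6NCrl pups that had undergone surgery under cold anesthesia at postnatal day 1 to receive fluorescent cholera toxin B, a tracer that axons carry back to the cell body. Amb Cardiac pups were injected through the chest into the pericardial space, and other pups were injected on both sides of the neck into the muscle. At postnatal days 2 to 4 the pups were killed under isoflurane, sagittal brainstem slices were kept for some hours at room temperature, and fluorescent cell bodies were sucked out of the slice with a pipette. Neurons of several pups were pooled, and the labels tie no neuron to its pup, so each type counted as 1 sample. Between Amb Cardiac and Larynx neurons, injection site, surgery and neuron type cannot be told apart. ACP and ACV neurons shared the injection site and surgery, but whether they came from the same pups is not given. No neurons without tracer or surgery were among the samples, and the values below are descriptions of these libraries without a test between types.

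Immediate early genes are switched on within minutes of a stimulus without new protein synthesis. *Fos*, *Fosb*, *Jun* and *Junb* encode subunits of the transcription factor AP-1, *Egr1* encodes a zinc finger transcription factor, and *Arc* encodes a protein of the synapse that helps to remove glutamate receptors. In neurons they are widely read as marks of recent activity, and they are also known to rise while tissue is cut and cells are isolated. *Atf3*, a transcription factor, *Sprr1a*, a small proline-rich protein, and *Jun* are known to rise in motor and sensory neurons whose axon has been cut. *Gap43* encodes a growth cone protein that is made during axon growth in development and again during regeneration. *Ddit3* encodes CHOP, a transcription factor of the response to misfolded proteins and amino acid shortage.

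Levels are given as read counts per 1000000 counts outside Rn45s (CPM), a ribosomal RNA gene that took 12.4% to 91.5% of the counts of a neuron. Counts outside Rn45s ran from 118492 to 2396541 per neuron, with a median of 1115375 in ACP, 1120511.5 in ACV and 560892 in Larynx neurons, so that Larynx neurons were the shallowest. The 7 motor neuron markers summed to a median of 7554 CPM in ACP, 7874 in ACV and 7173 in Larynx neurons, and each type held the markers of its name at its highest level. No gene of red blood cells had a read in any neuron, while astrocyte markers had reads in all of them. A share of neurons is given with its exact (Clopper-Pearson) 95% interval and a sum of reads with its exact Poisson interval. These intervals cover counting error only, since reads of amplified cDNA without molecular identifiers are not independent molecules.

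Compared per kilobase of exon, the order of mean levels began with *Gap43* and *Jun* in each type. *Gap43* averaged 1184, 1329 and 889 CPM per kilobase in ACP, ACV and Larynx neurons, and *Jun* averaged 31.02, 52.7 and 77.4. *Fos* followed in ACP and Larynx neurons at 15.8 and 36.02 CPM per kilobase, whereas in ACV neurons *Ddit3* followed at 19.8. *Fosb* and *Sprr1a* had the lowest means, none above 0.912 CPM per kilobase. For every gene the neurons of the 3 types overlapped in level, as the plot of single neurons shows.

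**Figure D1:**
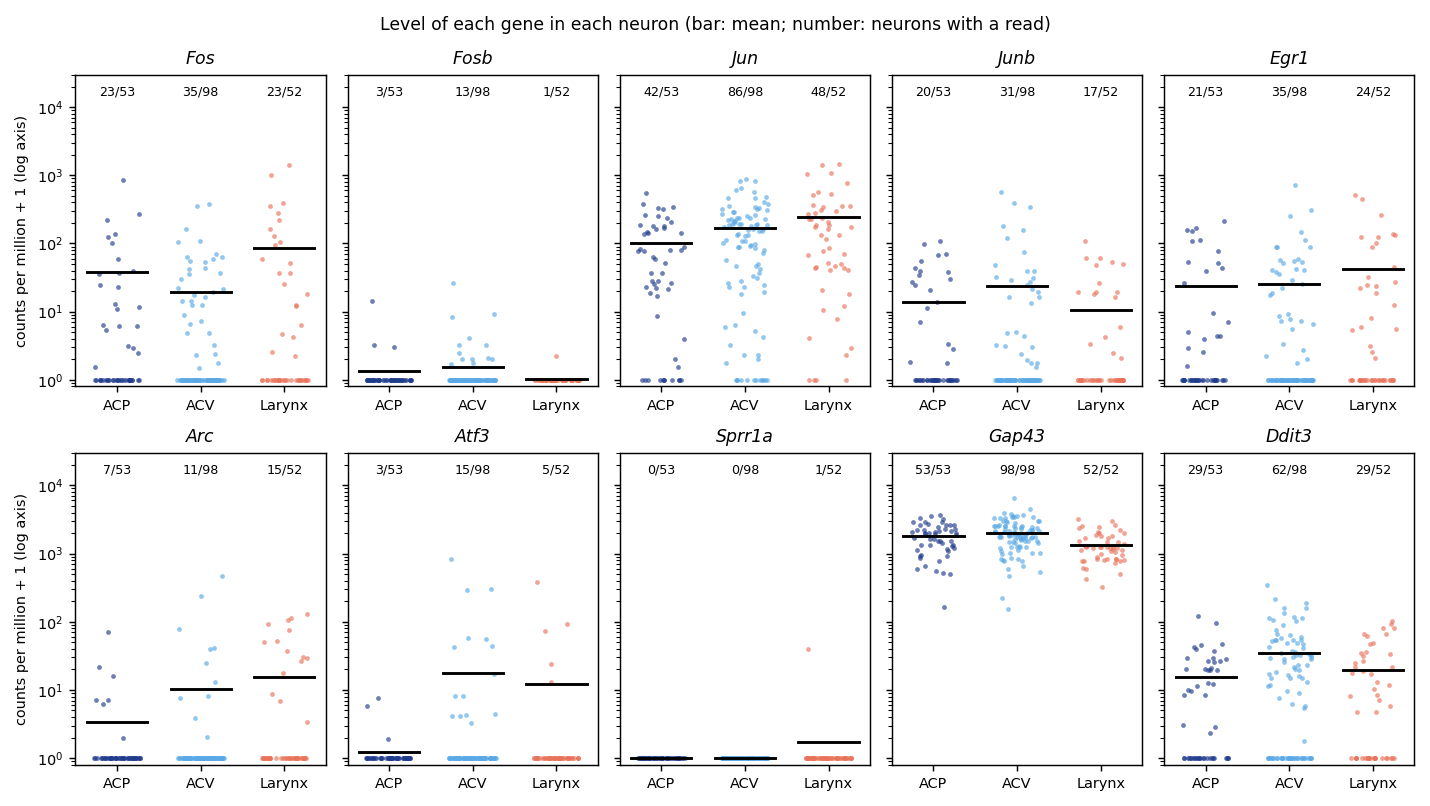
CPM plus 1, on a log axis, of each gene (panels) in each neuron (points) of the 3 types, with the mean as a bar and the number of neurons with a read above. Gap43 was read in every neuron and Sprr1a in 1, and for Fos, Fosb, Junb, Egr1, Arc and Atf3 most points of each type lie at the bottom of the axis, where the count was 0.

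*Fos*, on chromosome 12 (chr12:85473890-85477273 of GRCm38, plus strand), had no read in most neurons of any type. It was read in 23 of 53 ACP neurons (43.4%, 95% interval 29.8 to 57.7%), 35 of 98 ACV neurons (35.7%, 26.3 to 46.03%) and 23 of 52 Larynx neurons (44.2%, 30.5 to 58.7%). The lowest and the median level were 0 in each type, and the highest was 837 CPM in ACP, 377 CPM in ACV and 1399 CPM in Larynx neurons. The intervals of the shares overlapped between all types, while the highest level in Larynx neurons was 1399 CPM against 377 CPM in ACV neurons. Mean *Fos* was 37.1 ± 124.4 CPM (SD, n = 53) in ACP, 18.5 ± 56.5 CPM (n = 98) in ACV and 84.7 ± 246 CPM (n = 52) in Larynx neurons. The SD was larger than the mean in each type, and the 5 highest neurons held 81.05% of the summed *Fos* level of ACP, 60.4% of ACV and 77.96% of Larynx neurons.

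The single highest *Fos* level belonged to a Larynx neuron with only 143640 counts outside Rn45s, and the next Larynx neuron had 607 *Fos* reads and 1005 CPM. Both also had *Jun* and *Egr1* reads, at 132.3 CPM each in the former and at 775 and 520 CPM in the latter. The ACP neuron with 837 CPM of *Fos* had 379 CPM of *Jun* and 169.1 CPM of *Egr1*, and none of the 3 neurons had a read of *Fosb*, *Junb*, *Arc*, *Atf3* or *Sprr1a*. The highest ACV neuron, at 377 CPM of *Fos*, had 462 CPM of *Jun* and 51.9 CPM of *Egr1* and differed from these 3 in having 181.5 CPM of *Junb*.

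The *Fos* promoter is known to hold sites for CREB and for serum response factor, through which calcium and growth factor signals reach the gene. In its RefSeq entry (GRCm38.p6, plus strand, chr12:85473640-85473889) the 250 bases before the start held TGACGT, the core of the cAMP response element, once, from base -66 to base -61, here in capitals.

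Fos: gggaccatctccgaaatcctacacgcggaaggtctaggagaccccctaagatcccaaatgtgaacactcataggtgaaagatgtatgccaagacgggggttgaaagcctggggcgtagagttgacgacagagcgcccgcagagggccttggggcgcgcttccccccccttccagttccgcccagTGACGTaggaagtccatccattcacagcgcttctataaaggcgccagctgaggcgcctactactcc

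Promoters of 7 of the 10 genes were matched by symbol in RefSeq, and those of *Egr1*, *Arc* and *Gap43* were not. On either strand TGACGT was found in 6.47% of all 32851 promoters of this length, and among the others matched only in that of *Atf3*. Within this window *Fosb*, *Jun* and *Junb* held neither this core nor the AP-1 site TGANTCA nor TGCATCA, the core of the ATF4 element, and the CArG box, the site of serum response factor, was in 1.47% of all promoters and in none of the 7. Bases further than 250 upstream of each start were not searched, so the lack of a site holds for this window only. These letters describe the sequence only, since factor binding was not measured.

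*Fosb*, on chromosome 7 (chr7:19302696-19310051, minus strand), encodes a sister protein of Fos whose truncated form is known to persist after repeated stimulation. It was the rarest of the immediate early genes, read in 3 of 53 ACP, 13 of 98 ACV and 1 of 52 Larynx neurons. Summed over neurons it had 31 reads in ACP, 43 in ACV and 1 in Larynx neurons (Poisson intervals 21.1 to 44.002, 31.1 to 57.9 and 0.0253 to 5.57). The highest level was 13.4 CPM in ACP, 25.4 CPM in ACV and 1.22 CPM in Larynx neurons, and the median was 0 in each. After each neuron was thinned to 200000 counts outside Rn45s, *Fosb* was left in 2 ACP, 5 ACV and 0 of 49 Larynx neurons, which allows a share of up to 6.12% by the limit of 3 in 49 and of up to 7.25% by the exact interval. Its difference between types was therefore near the limit of what this depth can show.

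*Jun*, on chromosome 4 (chr4:95049034-95052222, minus strand), was the most widely read of the AP-1 genes. It had reads in 42 of 53 ACP neurons (79.2%, 65.9 to 89.2%), 86 of 98 ACV neurons (87.8%, 79.6 to 93.5%) and 48 of 52 Larynx neurons (92.3%, 81.5 to 97.9%). Levels ran from 0 to 543 CPM with a median of 50.3 CPM in ACP neurons, from 0 to 866 CPM with a median of 119.7 CPM in ACV neurons, and from 0 to 1458 CPM with a median of 131.99 CPM in Larynx neurons. The order of the means was the same, at 98.9 ± 121.25 CPM (SD, n = 53), 167.9 ± 189.1 CPM (n = 98) and 247 ± 342 CPM (n = 52), each step smaller than the SD within a type. More than 100 CPM of *Jun* was found in 33.96% of ACP, 54.1% of ACV and 53.8% of Larynx neurons, so ACP neurons stood lowest by median, mean and this share. *Jun* was spread over many neurons, with 36.5%, 22.8% and 44.98% of the summed level in the 5 highest neurons of the ACP, ACV and Larynx types. Its exons overlap those of *Junos* on the other strand, and without a stated strand setting the reads of both cannot be told apart.

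*Junb*, on chromosome 8 (chr8:84974484-84978718, minus strand), encodes an AP-1 subunit that is a weaker activator than Jun. It was read in 20 of 53 ACP neurons (37.7%), 31 of 98 ACV neurons (31.6%) and 17 of 52 Larynx neurons (32.7%), with a median of 0 CPM in each type. The highest levels were 106.8 CPM in ACP, 567 CPM in ACV and 107.6 CPM in Larynx neurons, and the means were 12.8 ± 25.1, 22.4 ± 80.3 and 9.71 ± 21.6 CPM. Of all neurons above 100 CPM of *Junb*, 6 were ACV, 1 was ACP and 1 was Larynx. Its exons overlap those of *Prdx2*, a peroxidase gene, on the other strand, whose reads could have been counted here.

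*Egr1*, on chromosome 18, was read about as often as *Fos*, in 21 of 53 ACP neurons (39.6%, 26.5 to 53.996%), 35 of 98 ACV neurons (35.7%, 26.3 to 46.03%) and 24 of 52 Larynx neurons (46.2%, 32.2 to 60.5%). Its highest levels were 211 CPM in ACP, 711 CPM in ACV and 520 CPM in Larynx neurons, with medians of 0. Mean *Egr1* was 23.2 ± 50.4 CPM, 24.6 ± 84.01 CPM and 41.3 ± 102.4 CPM in the same order. The neurons thus ranked Larynx above both cardiac types, by steps well within the SD of each, and the ACV neuron at 711 CPM alone held 29.4% of the ACV sum.

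*Arc*, on chromosome 15 (chr15:74669083-74672570, minus strand), was read in a larger share of Larynx neurons than of either cardiac type, with intervals that overlapped. It had reads in 7 of 53 ACP neurons (13.2%, 5.48 to 25.3%), 11 of 98 ACV neurons (11.2%, 5.74 to 19.2%) and 15 of 52 Larynx neurons (28.8%, 17.1 to 43.1%), although the latter were sequenced least. At 200000 counts a neuron the shares were 7.55% (2.09 to 18.2%), 9.18% (4.29 to 16.7%) and 26.5% (14.9 to 41.1%). The highest levels were 70.8 CPM in ACP, 462 CPM in ACV and 128.7 CPM in Larynx neurons, and the means were 2.36 ± 10.3, 9.27 ± 52.9 and 14.7 ± 31.8 CPM. The shares of the cardiac types thus lay close together, higher in ACP neurons with all reads and higher in ACV neurons after thinning. The ACV neuron at 462 CPM, with 380 *Arc* reads, held 50.9% of the ACV sum. That neuron had 13.4 CPM of *Fos* and no *Egr1* read.

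**Figure D2:**
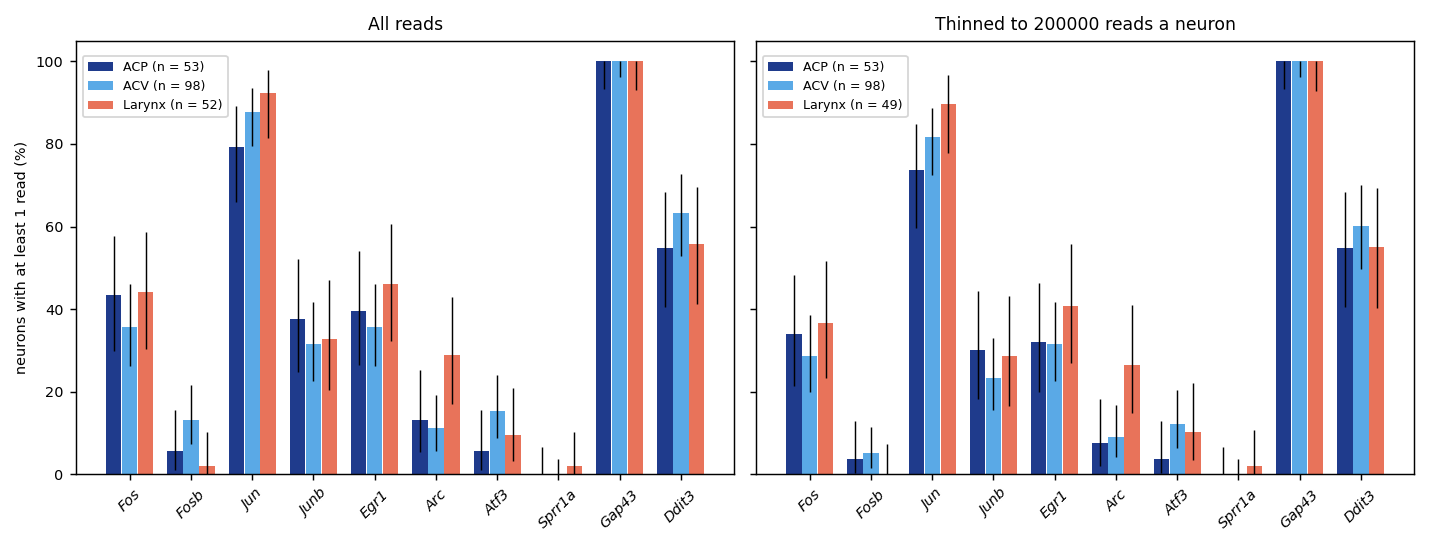
Percent of neurons of each type with at least 1 read of each gene, from all reads (left) and after thinning each neuron to 200000 counts outside Rn45s, which leaves out 3 Larynx neurons (right). Lines are exact 95% binomial intervals, which overlap between types for each gene, least for Arc after thinning, where the Larynx share of 26.5% lies above the ACP and ACV intervals but its own interval reaches below their upper ends.

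*Atf3*, on chromosome 1 (chr1:191170296-191218039, minus strand), was rare and, where present, sometimes high. It was read in 3 of 53 ACP neurons (5.66%, 1.18 to 15.7%), 15 of 98 ACV neurons (15.3%, 8.83 to 23.99%) and 5 of 52 Larynx neurons (9.62%, 3.20 to 21.03%). The sums were 18 reads in ACP, 1691 in ACV and 280 in Larynx neurons. No ACP neuron exceeded 6.52 CPM, whereas the highest ACV neurons reached 822, 301 and 289 CPM and the highest Larynx neuron reached 378 CPM. Mean *Atf3* was 0.232 ± 1.11 CPM in ACP, 16.9 ± 92.6 CPM in ACV and 11.1 ± 54.4 CPM in Larynx neurons. All 23 neurons with an *Atf3* read also had *Jun* reads, against 86.7% of all neurons, and 17 of the 23 had *Junb* reads, against 33.5% of all.

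The ACV neuron with 822 CPM of *Atf3* also held the highest *Junb* and *Fosb* levels of all neurons (567 and 25.4 CPM) and 827 CPM of *Jun*, with no *Fos*, *Egr1* or *Arc* read. Its astrocyte markers summed to 13625 CPM, against a median of 2263 CPM over ACV neurons, and its microglia markers to 4326 CPM, the highest of that type, whose median was 31.8 CPM. The next ACV neurons at 301 and 289 CPM had 1851 and 1896 CPM of astrocyte markers and 33.1 and 234 CPM of microglia markers. High *Atf3* was therefore found both with and without high glial marker levels, and the part of attached glial RNA in it was not tested.

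In the RefSeq promoter of *Atf3*, the stretch free of GENCODE exons (GRCm38.p6, minus strand, chr1:191183341-191183583, bases -250 to -8) held TGCATCA, the core of the element bound by ATF4, from base -109 to base -103, shown in capitals since ATF4 is a known activator of *Atf3* under stress.

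Atf3: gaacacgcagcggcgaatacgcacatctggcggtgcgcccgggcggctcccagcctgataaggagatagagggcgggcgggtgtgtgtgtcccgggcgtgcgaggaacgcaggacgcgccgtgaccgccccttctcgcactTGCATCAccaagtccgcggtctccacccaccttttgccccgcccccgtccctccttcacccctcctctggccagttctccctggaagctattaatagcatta

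This core was found on either strand in 2.68% of all promoters. The stretch shown lies inside the gene span given above, so it precedes an internal start. Bases before the far 5' end of the GENCODE gene, at chr1:191218039, were not searched. A TGACGT core lay from base -8 to base -3 on the opposite strand, of which the stretch shown holds only base -8.

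*Sprr1a*, on chromosome 3 (chr3:92483952-92485895, minus strand), was the gene closest to absent. It had a read in 0 of 53 ACP and 0 of 98 ACV neurons, which allows shares of up to 5.66% and 3.06% by the limit of 3 in 53 and 3 in 98 and of up to 6.72% and 3.69% by the exact intervals, and it was read in 1 of 52 Larynx neurons (1.92%, 0.0487 to 10.3%). That neuron had 37 reads of it (38.2 CPM), with 512 CPM of *Jun*, 60.98 CPM of *Junb* and 11.4 CPM of *Egr1*, but no *Atf3* or *Fos* read. No level can be compared between types for this gene.

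Its RefSeq promoter is shown (GRCm38.p6, minus strand, chr3:92485896-92486131, bases -250 to -15) because it holds the AP-1 site TGANTCA, the site that Jun and Fos proteins bind, in 2 places, from base -146 to base -140 and from base -116 to base -110, in capitals.

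Sprr1a: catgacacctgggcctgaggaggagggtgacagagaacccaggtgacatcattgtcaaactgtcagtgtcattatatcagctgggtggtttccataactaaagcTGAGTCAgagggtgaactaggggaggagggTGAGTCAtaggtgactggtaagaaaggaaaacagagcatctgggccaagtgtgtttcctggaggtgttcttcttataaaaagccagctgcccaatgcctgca

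The site was found in 6.75% of all promoters. *Jun* was read in 86.7% of all neurons and *Sprr1a* in 1 of them.

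*Gap43*, on chromosome 16 (chr16:42248442-42340651, minus strand), was read in every neuron and varied least relative to its mean. Levels ran from 160.9 to 3686 CPM with a median of 1890 CPM in ACP neurons, from 152.98 to 6540 CPM with a median of 1929 CPM in ACV neurons, and from 318 to 3211 CPM with a median of 1222 CPM in Larynx neurons. Mean *Gap43* was 1803 ± 848 CPM (SD, n = 53), 2024 ± 1002 CPM (n = 98) and 1354 ± 660 CPM (n = 52), so both cardiac types stood above Larynx neurons by less than the SD of each cardiac type. The share of the 5 highest neurons was 17.4% in ACP, 11.4% in ACV and 19.7% in Larynx neurons. ACP and ACV neurons overlapped over nearly their whole range, with the higher *Gap43* level on the ACV side in 55.3% of all pairs of 1 ACP and 1 ACV neuron.

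*Ddit3*, on chromosome 10 (chr10:127290774-127296288, plus strand), was read in 29 of 53 ACP neurons (54.7%, 40.4 to 68.4%), 62 of 98 ACV neurons (63.3%, 52.9 to 72.8%) and 29 of 52 Larynx neurons (55.8%, 41.3 to 69.5%). Its median was 2.04 CPM in ACP, 14.7 CPM in ACV and 5.41 CPM in Larynx neurons, with highest values of 120.3, 349 and 100.4 CPM. Mean *Ddit3* was 14.5 ± 23.3, 33.9 ± 54.3 and 18.7 ± 26.9 CPM, and 11 ACV neurons but 1 ACP and 1 Larynx neuron exceeded 100 CPM. ACV neurons thus held the upper end of the range, while a share of each type had no read at all. Its exons overlap *Mars* and *Gm4189* on the other strand and another gene entry of the same name, so its counts are less certain than those of *Fos* or *Gap43*.

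To compare the targets, Amb Cardiac neurons were set against Larynx neurons. *Fos* and *Arc* were lower and *Fosb* was higher in Amb Cardiac neurons by at least 2-fold of the mean level, the fold fixed for naming a difference without a test. *Gap43* and *Ddit3* were somewhat higher and *Jun* and *Egr1* somewhat lower, by less than 2-fold, and *Atf3* was nearly level. Of the 9 genes with a read in at least 10% of either group, 1 was at least 2-fold higher, where 9.46% of all 13202 genes compared were, and 2 were at least 2-fold lower, where 10.9% of all genes were. *Fosb* and *Atf3* met the minimum only through Amb Cardiac neurons, where they were read in 10.6% and 11.9%, and *Sprr1a* did not meet it.

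Mean *Fos* was 25.1 CPM in Amb Cardiac and 84.7 CPM in Larynx neurons, 3.38 times as high in the latter. In 37.9% of all pairs of 1 neuron from each group the Larynx neuron was higher, in 27.8% the Amb Cardiac neuron, and in 34.3% both were at 0 or equal. Left out singly, no neuron ended this difference, which ran from 2.35-fold without the highest Larynx neuron to 4.31-fold without the highest ACP neuron. It was on the same side under each scaling and selection tried, with log2 ratios of Amb Cardiac over Larynx from -0.93 to -2.20, and was under 2-fold only with totals that include Rn45s. *Fos* levels correlated weakly with microglia markers (rho 0.305 over all neurons), whose mean sum was 173.7 CPM in Larynx, 66.2 CPM in ACP and 318 CPM in ACV neurons, and their part in the difference was not tested.

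Mean *Arc* was 6.84 CPM in Amb Cardiac and 14.7 CPM in Larynx neurons, 2.14 times as high in the latter. This depended on single neurons, being 3.86-fold without the ACV neuron at 462 CPM and 1.82-fold without the highest Larynx neuron. Any of 5 Larynx neurons, at 75.1 to 128.7 CPM, brought it under 2-fold when left out. *Fosb* was 0.485 CPM in Amb Cardiac and 0.0236 CPM in Larynx neurons, which rests on 1 Larynx read. The ratio of its summed reads, 12.98, had a counting interval of 2.26 to 519. Without the ACV neuron at 25.4 CPM the ratio of means fell from 20.6 to 13.5, and without the single Larynx neuron with a read no ratio could be formed.

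*Jun* was 1.72 times and *Egr1* 1.71 times as high in Larynx neurons by the mean, and the Larynx neuron was the higher in 57.4% and 38.2% of pairs. *Egr1* passed 2-fold, at 2.11, when the ACV neuron at 711 CPM was left out. *Junb* was 1.96 times as high in Amb Cardiac neurons and passed 2-fold when any of 7 Larynx neurons, at 25.5 to 107.6 CPM, was left out, reaching 2.44. In neurons with at most 900 *Apoe* reads, *Junb* was instead lower in Amb Cardiac neurons, with a log2 ratio of -1.25 against 0.97 in all neurons. In that selection of 26 ACP, 44 ACV and 38 Larynx neurons with few reads of *Apoe*, a gene of astrocytes, *Jun* and *Egr1* passed 2-fold, with log2 ratios of -1.08 and -1.96. The limit was on raw reads, which shallow neurons meet more easily, so it did not select at equal *Apoe* level. Over all neurons the median *Apoe* level was 892 CPM in ACP, 855 CPM in ACV and 977 CPM in Larynx neurons, the shallowest type.

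*Atf3* averaged 11.03 CPM in Amb Cardiac and 11.09 CPM in Larynx neurons, which gives no direction. Leaving out the Larynx neuron at 378 CPM made it 2.83-fold higher in Amb Cardiac neurons, whereas leaving out the ACV neuron at 822 CPM made it 1.97-fold higher in Larynx neurons. With at most 900 *Apoe* reads the log2 ratio of Amb Cardiac over Larynx was -3.27. *Gap43*, by contrast, was 1.44 times as high in Amb Cardiac neurons, and 1.42 to 1.48 times whichever neuron was left out, with the Amb Cardiac neuron higher in 70.02% of pairs. Its level correlated with depth within ACP (0.450) and ACV neurons (0.426) and hardly within the shallower Larynx neurons (0.0342). The part of depth in this difference was not tested. *Ddit3* was 1.45 times as high in Amb Cardiac neurons, and 1.33 to 1.58 times whichever neuron was left out.

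To compare the cardiac types, ACP neurons were set against ACV neurons. *Atf3*, *Arc* and *Ddit3* were lower in ACP neurons by at least 2-fold and *Fos* was higher by just that much, while *Jun*, *Junb* and *Fosb* were lower by less than 2-fold and *Gap43* and *Egr1* were nearly level. With 1 gene at least 2-fold higher and 3 at least 2-fold lower of the 9 compared, the shares over all 13356 genes were 9.87% higher and 8.63% lower. *Atf3* and *Fosb* met the 10% minimum only through ACV neurons. ACP and ACV neurons had been assigned by clustering of these counts.

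*Ddit3* was 2.33 times as high in ACV neurons as in ACP neurons by the mean, and remained at least 2.11 times as high whichever neuron was left out. The ACV neuron was the higher in 51.9% of pairs, the ACP neuron in 31.5%, and both were equal in 16.6%. The log2 ratio of ACP over ACV stayed between -1.01 and -1.33 under each scaling and selection, the narrowest range of the 4 genes past 2-fold.

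*Atf3* was 72.6 times as high in ACV neurons by the mean, and 52.4 times by summed reads (counting interval 33.1 to 88.7). The ratio of means was 36.9 without the ACV neuron at 822 CPM and 151.4 without the ACP neuron at 6.52 CPM. In most pairs, 79.9%, neither neuron had a read, and 10 ACV neurons exceeded the highest ACP neuron. The size of the ratio was thus carried by a small number of ACV neurons, while the shares with a read, 5.66% and 15.3%, had overlapping intervals.

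*Fos* was 2.00 times as high in ACP neurons by the mean, at the edge of the fixed fold. The ratio fell to 1.17 without the ACP neuron at 837 CPM, and it was under 2-fold without any 1 of 8 ACP neurons or of 79 ACV neurons. *Arc* was 3.93 times as high in ACV neurons, 1.95 times without the ACV neuron at 462 CPM and 8.91 times without the ACP neuron at 70.8 CPM, and turned to the other side, with a log2 ratio of 1.81, in neurons with at most 900 *Apoe* reads. *Jun* was 1.70 times as high in ACV neurons, with the ACV neuron higher in 60.3% of pairs. *Junb* was 1.75 times as high in ACV neurons and passed 2-fold without either of 2 ACP neurons (2.04 without the higher), but its trimmed mean lay on the side of ACP neurons, with a log2 ratio of 0.27. *Fosb* was 1.70 times as high in ACV neurons, 6.925 times without the ACP neuron at 13.4 CPM, and lay on the side of ACP neurons by summed counts (log2 ratio 0.37). *Egr1* was 1.06 times as high in ACV neurons and 1.32 times as high in ACP neurons without the ACV neuron at 711 CPM, which gives no direction.

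The plot of all genes shows where these ratios fall. Microglia markers moved with the same comparison: 5 of the 6 compared were at least 2-fold lower in ACP neurons, with a median ratio of ACP over ACV of 0.193. Of all genes 8.63% were at least 2-fold lower and 9.87% higher in ACP neurons. The summed level of microglia markers ran from 0 to 688 CPM in ACP neurons and from 0 to 4326 CPM in ACV neurons, and 22 of 53 ACP and 29 of 98 ACV neurons had none. Its mean was 66.2 CPM in ACP and 318 CPM in ACV neurons, against medians of 7.18 and 31.8 CPM, so a minority of neurons held much of it. Among them *Cx3cr1* was at 5.12 and 43.2 CPM and *C1qa* at 14.5 and 66.5 CPM in ACP and ACV neurons. Of 7 astrocyte markers 1, *Gfap*, was at least 2-fold lower in ACP neurons, with a highest level of 351 CPM in ACP and 3614 CPM in ACV neurons. Of 7 oligodendrocyte lineage markers 1, *Sox10* (15.4 against 5.585 CPM), was at least 2-fold higher in ACP neurons. So were 3 of the 4 vascular markers compared, with a median ratio of 3.68 and *Rgs5* at 6.91 against 1.34 CPM, although the list summed to a mean of only 27.9 CPM in ACP and 20.7 CPM in ACV neurons. Of these *Pdgfrb* met the 10% minimum only through ACP neurons (11.3% against 7.14%). *Pecam1* (0.0143 against 0.544 CPM) and *Flt1* (0 against 0.181 CPM), lower in ACP neurons, did not meet it and were not compared. The part of these cells in the levels of *Atf3*, *Arc* and *Ddit3* was not tested.

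**Figure D3:**
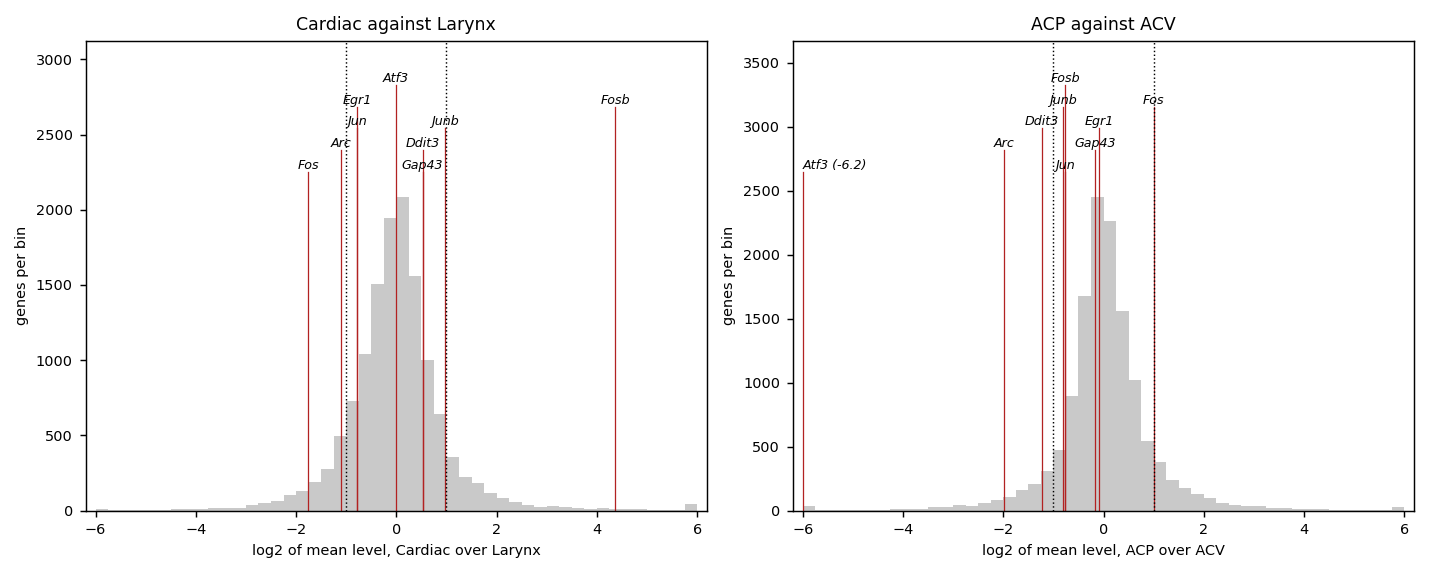
Number of genes in each bin of 0.25 of the log2 ratio of mean levels (grey; genes past 6 stand in the outermost bins), Amb Cardiac over Larynx (left) and ACP over ACV (right), with the 9 genes read in at least 10% of either group as red lines and the 2-fold limits dotted. Fos and Arc lie to the left of the lower limit and Fosb to the right of the upper in the left panel; Atf3, Arc and Ddit3 lie to the left and Fos on the upper limit in the right panel, where Atf3, at -6.2, is drawn at -6.

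Among neurons the immediate early genes were seen together to a limited degree. *Fos* and *Egr1* were both read in 51 neurons, 62.96% of the 81 with *Fos* and 63.8% of the 80 with *Egr1*, and neither was read in 93. Their levels had the highest Spearman correlation of the 15 pairs of immediate early genes, 0.451 over all neurons, with 0.302 within ACP, 0.581 within ACV and 0.363 within Larynx neurons. The 15 pairs ranged from -0.0200 to 0.451 with a median of 0.221. The points share their library preparation and depth, and *Fos* and *Egr1* also had correlations of 0.267 and 0.258 with the number of genes read per neuron, so weak values among these sparse counts are no finding.

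*Junb* followed with 0.310 to *Fos* and 0.326 to *Egr1*. *Jun* had 0.174 with *Junb*, 0.0799 with *Fos* and -0.0200 with *Fosb*, although 72 of the 81 neurons with *Fos* had *Jun*, since *Jun* was read nearly everywhere. *Gap43* had correlations of -0.112 to 0.182 with the other genes but rose with depth over all neurons, at 0.463 with the counts outside Rn45s. Within types that value was 0.450 in ACP, 0.426 in ACV and 0.0342 in Larynx neurons. *Ddit3* had -0.0126 with *Fos* and 0.390 with the number of genes read.

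The count of the 6 immediate early genes read per neuron described the same picture. It averaged 2.19 ± 1.33 in ACP, 2.15 ± 1.58 in ACV and 2.46 ± 1.35 in Larynx neurons, and after thinning 1.81 ± 1.35, 1.80 ± 1.23 and 2.22 ± 1.39. None of the 6 was read in 12 neurons (5.91%, 3.09 to 10.1%), exactly 1 in 71 neurons, and all 6 in 3 neurons (1.48%, 0.306 to 4.26%), of which 1 was ACP and 2 were ACV. A lone immediate early gene was the most common state in each type, and types differed by less than 1 SD. *Jun*, 1 of the 6, was read in 86.7% of all neurons and the next, *Fos*, in 39.9%, so a count of 1 can be *Jun* alone.

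**Figure D4:**
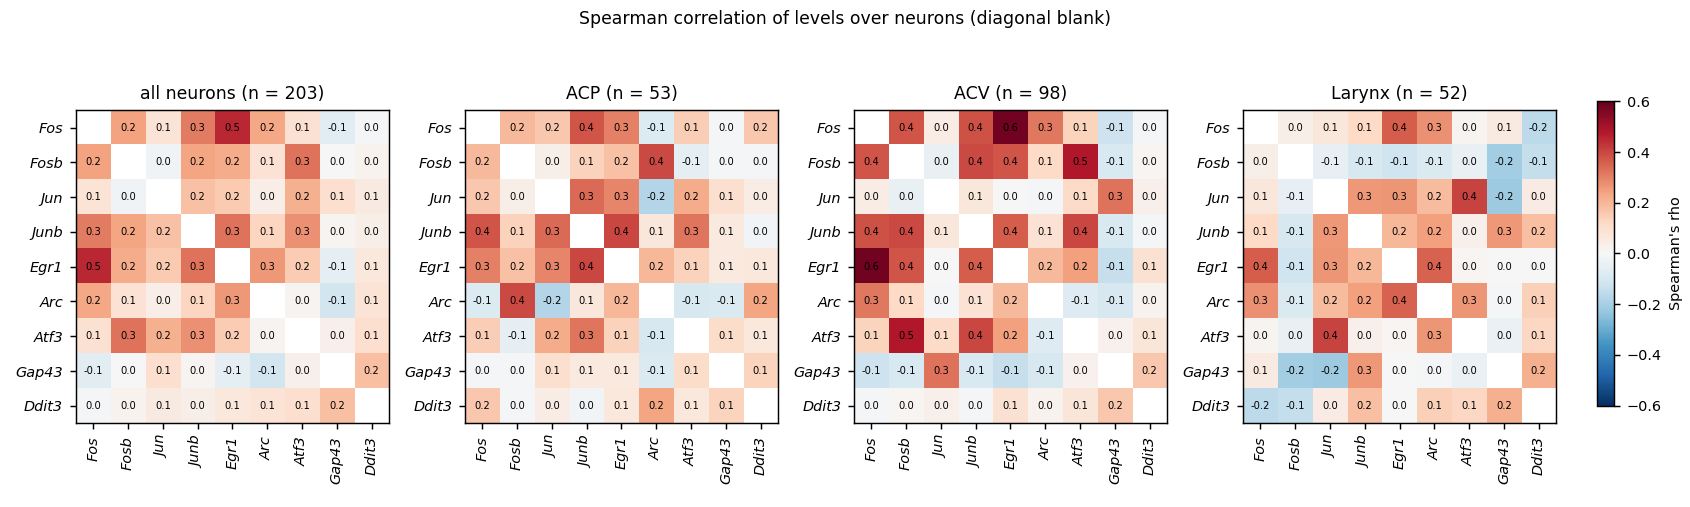
Spearman correlation of CPM between the 9 genes other than Sprr1a, over all neurons and within each type (panels). The darkest cell over all neurons is that of Fos with Egr1, at 0.451, while in that panel the rows of Gap43 and Ddit3 stay between -0.112 and 0.101 with the immediate early genes. Within types they reach further, as for Gap43 with Jun at 0.327 in ACV and -0.218 in Larynx neurons.

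By likeness of level over all neurons of the 3 types, among 11195 genes read in at least 20% of them, the genes most like *Fos* were *Egr1* (0.451), *Itgb5* (0.400) and *Tnfaip8* (0.397). Those most like *Egr1* were *Fos*, *Itgb5* (0.397) and *Klf9* (0.364), so *Itgb5*, an integrin subunit, was among the closest 3 of both. For *Jun* they were *Tagln2* (0.420), *Zmiz1* (0.361) and *Hpcal1* (0.361), and for *Junb* they were *Pdzrn3* (0.394), *Btbd17* (0.358) and *Rcbtb2* (0.348). *Gap43* gave higher values than any of these, with *Tuba1a*, an alpha tubulin, at 0.768, *Gng3*, a G protein gamma subunit, at 0.746 and *Bex2* at 0.740.

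Other genes of the same kinds were read for context. Their ratios were not repeated with each neuron left out, so a single high neuron can carry one. Some of them met the 10% minimum only through the group where they were higher. Of 26 other immediate early genes 21 were compared between targets, 4 at least 2-fold higher and 7 at least 2-fold lower in Amb Cardiac neurons, against 9.46% and 10.9% of all genes, with a median ratio of 0.608 where that of all genes was 0.994. Higher were *Nr4a2*, a nuclear receptor (11.2 against 2.81 CPM), the Krüppel-like factor *Klf6* (151.2 against 45.3 CPM) and *Dusp1*, a MAP kinase phosphatase (52.5 against 17.5 CPM). Lower were *Homer1*, a scaffold protein of the synapse (11.1 against 40.5 CPM), *Ier3* (9.58 against 32.98 CPM) and *Nptx2*, a pentraxin (2.02 against 6.36 CPM). The list thus held members on both sides, as *Fos* and *Fosb* did. Between the cardiac types 5 of 21 were at least 2-fold higher and 1 lower in ACP neurons, against 9.87% and 8.63% of all genes, with *Nr4a2* at 25.3 against 3.49 CPM, *Bdnf* at 58.2 against 18.8 CPM and *Homer1* at 18.9 against 6.86 CPM, and with a median ratio of 1.05 where that of all genes was 1.002.

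Of 10 factors that switch on immediate early genes, none passed 2-fold between targets, and *Srf*, serum response factor, passed it between cardiac types at 7.88 CPM in ACP and 2.22 CPM in ACV neurons. Of 10 heat shock genes, *Hspa1a* passed it, at 5.46 CPM in Amb Cardiac and 12.1 CPM in Larynx neurons, and none did so between cardiac types. In Larynx neurons *Hspa1a* had a median of 0 and a highest level of 174.1 CPM. It was read in 36.4% of Amb Cardiac and 46.2% of Larynx neurons. The shares of all genes at least 2-fold higher and lower were 9.46% and 10.9% between targets, and 9.87% and 8.63% between cardiac types. The constitutive chaperones *Hspa8* and *Hsp90ab1* were read in all neurons at 1855 and 3213 CPM in Amb Cardiac and 1578 and 2738 CPM in Larynx neurons.

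Of 24 other genes known from axon injury 19 were compared. Between targets 5 were at least 2-fold lower and 0 higher in Amb Cardiac neurons, against 10.9% and 9.46% of all genes, and the median ratio was 0.798 where that of all genes was 0.994. *Tnfrsf12a*, the receptor of TWEAK, was at 35.8 CPM in Amb Cardiac and 117.9 CPM in Larynx neurons, *Stat3*, a transcription factor of cytokine signaling, was at 63.6 and 146.05 CPM, and the neuropeptide gene *Gal* was at 23.9 and 52.4 CPM. The other 2, chosen for naming after their values were seen, were *Smad1* (48.8 and 104.7 CPM) and *Socs3* (3.79 and 9.88 CPM). *Socs3* met the 10% minimum only through Larynx neurons (19.2% against 9.27%). Of these 5 genes *Gal* alone was read in a smaller share of Larynx than of Amb Cardiac neurons, 36.5% against 50.99%. Its level in Larynx neurons had a median of 0 and a highest value of 1059 CPM. *Sox11*, a factor of axon growth, was at 92.5 and 101.3 CPM and *Ecel1*, a peptidase, at 1141 and 1430 CPM, read in 88.7% and 97.4% of Amb Cardiac neurons, against 11.9% for *Atf3*.

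Between cardiac types 5 of the 19 were at least 2-fold higher and 4 lower in ACP neurons, against 9.87% and 8.63% of all genes. *Cckbr*, a cholecystokinin receptor (33.2 against 3.73 CPM), *Lifr*, the leukemia inhibitory factor receptor (254 against 34.8 CPM), and the neuropeptide gene *Vip* (12.9 against 2.39 CPM) were higher in ACP neurons. *Vip* met the 10% minimum only through ACP neurons (28.3% against 6.12%). *Nts* (3.84 against 49.9 CPM), the surface glycoprotein *Cd44* (14.9 against 80.4 CPM) and *Npy* (14.2 against 34.1 CPM) were lower. The paper names *Cckbr* and *Lifr* as enriched in ACP and *Cd44* in ACV neurons. Since both types were assigned by clustering of these same counts, such differences are not independent of the assignment. The median ratio of the list was 1.17, on the other side from *Atf3*.

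Growth cone genes other than *Gap43* numbered 15, all were compared, and none passed 2-fold in either comparison. Over all genes the shares higher and lower were 9.46% and 10.9% between targets, and 9.87% and 8.63% between cardiac types. Their median ratios were 1.11 for Amb Cardiac over Larynx and 1.004 for ACP over ACV neurons. *Tuba1a* was at 11593 CPM in Amb Cardiac and 7873 CPM in Larynx neurons, *Stmn2*, a stathmin, was at 2546 and 2306 CPM, and *Basp1*, a membrane protein related in function to Gap43, was at 260 and 467 CPM, which is the opposite side from *Gap43*.

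Of 18 other genes of the stress response around *Ddit3*, 17 were compared. Between targets 2 were at least 2-fold higher and 1 lower in Amb Cardiac neurons, against 9.46% and 10.9% of all genes. Higher were *Trib3*, a pseudokinase target of CHOP (10.6 against 1.62 CPM), and *Ppp1r15a* (GADD34), which restores translation (26.9 against 11.9 CPM). *Trib3* met the 10% minimum only through Amb Cardiac neurons (20.5% against 7.69%). *Eif2ak3*, the stress kinase PERK, was lower at 11.1 against 28.6 CPM. Between cardiac types 2 were at least 2-fold higher and 1 lower in ACP neurons, against 9.87% and 8.63% of all genes. *Eif2ak3* (22.6 against 4.83 CPM) and *Sesn2* (23.9 against 11.1 CPM) were higher and *Psat1*, of serine synthesis, was lower (39.1 against 84.3 CPM) in ACP neurons. *Psat1* reached 496 CPM in ACP and 1719 CPM in ACV neurons and was read in 60.4% and 58.2% of them. *Atf4*, the factor upstream of *Ddit3* and *Atf3*, was at 85.2 CPM in ACP and 112.6 CPM in ACV neurons, and *Chac1*, a target of both ATF4 and CHOP, was at 21.5 and 37.4 CPM. Neither passed 2-fold, and the median ratio of the list was 0.929 for ACP over ACV and 1.34 for Amb Cardiac over Larynx neurons.

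**Figure D5:**
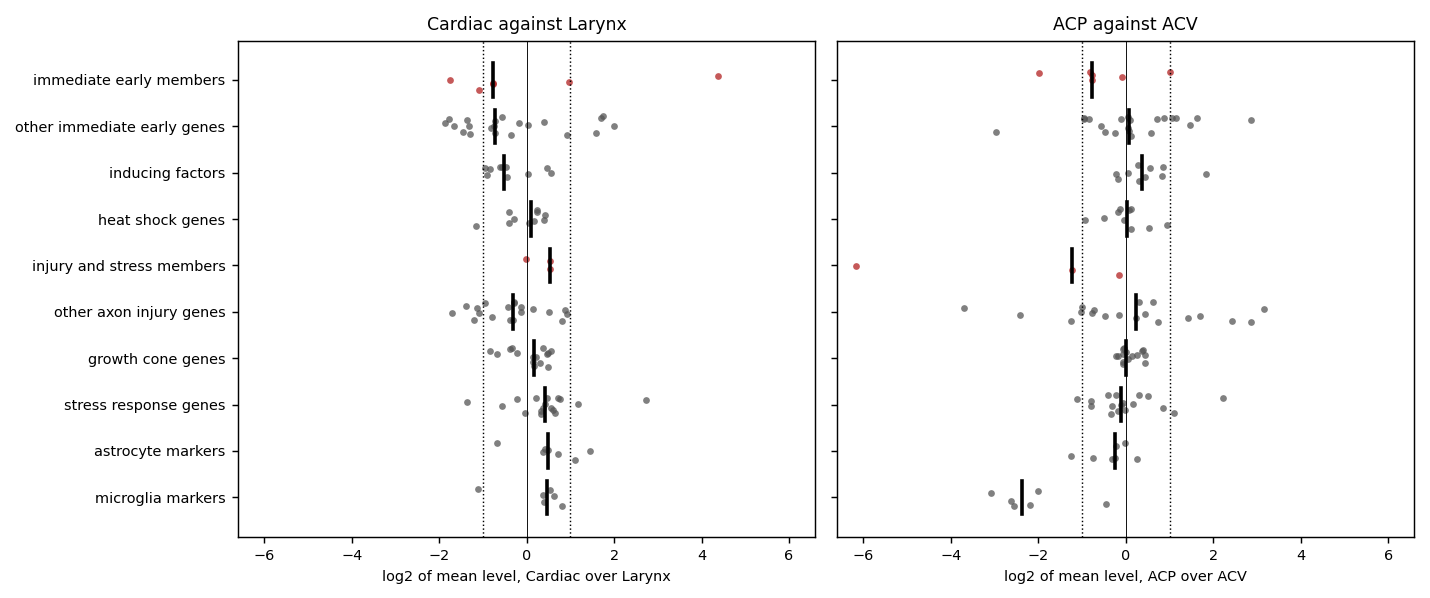
Log2 ratio of mean levels of each gene (points) in the lists (rows), Amb Cardiac over Larynx (left) and ACP over ACV (right), for genes read in at least 10% of either group, with the list median as a bar and 2-fold limits dotted; red points are the 9 genes compared of the 10. Growth cone genes lie within the limits in both panels, and 5 of 6 microglia markers lie below the lower limit in the right panel.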

How the data were processed

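Single neurons were profiled by SMART-seq2, with one library per neuron and mouse and plate not given in the labels. The authors trimmed reads with Skewer, aligned them to mm10 with STAR 2.6.1d and deposited whole read counts per gene and neuron that were not normalized; the counting program, its annotation and its strand setting are not given in the sources used here. The study removed neurons under 500000 aligned reads or over 1800 *Apoe* counts, yet 39 neurons of the deposited table hold more than 1800 raw *Apoe* reads. The deposited table named CPM was not used, because its columns were divided by other neurons' totals.

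Counts were divided by each neuron's total outside Rn45s and averaged per type of the deposited annotation. Genes with a read in at least 10% of either group were compared by the ratio of means, with 2-fold as the limit. No p-value was computed, since neurons are not replicates. Shares were repeated at 200000 counts per neuron. Positions and exon lengths came from GENCODE vM21 and promoters from RefSeq (both GRCm38). The genes and the 17 lists were chosen with earlier results of these data known. Named were the 10 genes, up to 3 genes per list, direction and comparison (largest ratio past 2-fold, read in at least 20% of either group) and the 3 genes of highest Spearman correlation; *Sox11*, *Ecel1*, *Hspa8*, *Hsp90ab1*, *Stmn2*, *Basp1*, *Atf4* and *Chac1* were added after their values were seen. Alternatives were other totals, edgeR 4.0.16 TMM and DESeq2 1.42.0 size factors, summed counts, a mean trimmed by 5% at each end, thinning, at most 900 *Apoe* reads, at least 1000000 counts, other detection filters and folds, and each neuron left out. The genes of highest correlation with *Ddit3* are not reported here. The ratio step was tested on simulated data whose levels varied less between neurons than those of sparse genes such as *Atf3* and *Arc*. That test therefore does not show how steady the ratios of such genes are. Python 3.11.15, numpy 2.4.6, pandas 2.3.3, scipy 1.17.1 and R 4.3.3 were used.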

Additional observations from a re-analysis of the deposited data

How the results depend on the processing

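The number of the genes at least 2-fold higher in Amb Cardiac than Larynx neurons, 1 as reported, was 4 with totals that include Rn45s, 2 with edgeR's TMM or DESeq2's size factors, 0 when thinned, with at most 900 *Apoe* reads or with a detection filter of 25%, and 2 at 1.5-fold, and ran from 1 to 2 with a neuron left out. The number at least 2-fold lower, 2 as reported, was 0 with totals that include Rn45s, 4 with the trimmed mean or at 1.5-fold, 6 with at most 900 *Apoe* reads, and 1 with at least 1000000 counts or at 3-fold, and ran from 1 to 3 with a neuron left out. Totals that include Rn45s moved the median log2 ratio of all genes between targets from -0.01 to 0.56, with 3212 genes higher and 608 lower against 1249 and 1439, so *Fos* and *Arc* at -0.93 and -0.95 then lay below that median by more than 1 on the log2 scale, and *Gap43* and *Ddit3* at 1.19 and 1.11 above it by less than 1.

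For ACP over ACV neurons the number higher, 1 as reported, was 0 with TMM, DESeq2's size factors, the trimmed mean or 3-fold and 2 with at most 900 *Apoe* reads, and ran from 0 to 1 with a neuron left out. The number lower, 3 as reported, was 1 with the 25% filter, 6 at 1.5-fold, 4 with at most 900 *Apoe* reads and 2 when thinned or at 3-fold, and ran from 2 to 4 with a neuron left out. With the trimmed mean it was 3 with *Fosb* in place of *Arc*. *Arc* reversed to a log2 ratio of 1.81 with at most 900 *Apoe* reads. The correlation of *Fos* with *Egr1* was 0.348 in those neurons, 0.302 within ACP and 0.581 within ACV neurons. The causes of these shifts were not tested, except that thinning, filters and selections compare fewer reads, genes or neurons. Of the other ratios of single genes, 37 changed side of the fold limit or no longer passed the detection filter. Of the shares of neurons with a read, 12 left their interval.

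No paired analysis was possible because the labels put all neurons in 1 group and tie none to a mouse. Depth limits *Fosb*, which was read in 17 neurons and, after thinning, in 7.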
